A study of Mus musculus with 15 samples.

Results

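Genes that mark successive stages of the testis were followed through the 3 epididymal fat libraries of a dietary restriction (DR) experiment in mice. The 10 genes were Prm1, Prm2, Tnp1 and Tnp2 for spermatids, Sycp3 for spermatocytes, Ddx4 and Dazl for early germ cells, Insl3 and Cyp17a1 for Leydig cells, and Amh for Sertoli cells. They are 10 of the 23589 loci with a gene name in the deposited table, found by matching each gene symbol of a locus to these names. They were selected on their counts in these same fat libraries, where testis genes had already been seen to differ between diets. Their values in fat are therefore a description, and no test is attached to them.

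Male C57BL/6 mice on 3 diets gave RNA of epididymal fat and of liver, colon, hypothalamus and hippocampus, to ask whether changes made by a short DR persist after it ends. The AL group was fed ad libitum and was 5 months of age. The DR group received 60% of the AL intake for 1 month from 4 months of age, and was also 5 months of age. The DR-AL group was taken through the same month of DR, was then fed AL for 2 months and was 7 months of age, so diet and age cannot be told apart in it. A library was made from RNA pooled over 5 mice, 1 library per tissue under a diet, so no difference between libraries has a replicate check.

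Sperm are made in the seminiferous tubules of the testis, from stem cells that divide, enter meiosis as spermatocytes and leave it as round spermatids. Spermatids compact their chromatin by replacing histones with transition proteins and then with protamines, while Sertoli cells nurse them and Leydig cells between the tubules make testosterone. Epididymal fat lies beside the testis and epididymis, and adipose tissue is not known as a site of sperm formation.

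Counts on named loci numbered 26217345, 22829358 and 27357403 in the AL, DR and DR-AL fat libraries, against a range of 21767088 to 40500130 over the 15 libraries. Levels are given as deposited counts, or as CPM, counts scaled to a common total of 1000000 on named loci per library. A limit of 3 counts, the one-sided 95% limit that a count of 0 allows, stands at 0.114, 0.131 and 0.110 CPM in the AL, DR and DR-AL fat libraries. Ratios between libraries are ratios of CPM with exact Clopper-Pearson 95% intervals, which cover counting error only. Adipocyte genes were abundant in every fat library, since 11 of them, the adipokine genes Adipoq and Lep among them, summed to 44560, 38356 and 31045 CPM in AL, DR and DR-AL fat. The AL fat library also held counts of liver genes, at 7.98% to 17.7% of the AL liver level for 8 of them, where DR fat held 0.0495% to 0.155% and DR-AL fat 0.0133% to 0.304% of the level in liver of the same diet.

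The germ cell genes other than Sycp3 had at most 43 counts in AL fat, 102 or more in DR fat and 684 or more in DR-AL fat. In DR against AL, 9 of the 10 genes were higher by at least 25%, the fold used in the study's methods, as were 43.9% of the 20382 loci with at least 1 count in fat. A fold of at least 2 was passed by 8 genes and 23.8% of loci, and a fold of at least 10 by 6 genes and 7.69% of loci. Those 6 were Prm1, Prm2, Tnp1, Tnp2, Ddx4 and Dazl. In DR-AL against AL, all 10 genes were higher by at least 25% (53.6% of loci), all 10 by at least 2-fold (33.2%) and 6 by at least 10-fold (13.3%). In DR-AL against DR, the numbers were 10 genes (47.6% of loci), 8 genes (25.7%) and 0 genes (1.36%). The comparisons share libraries with each other, and the genes were picked for this pattern, so nothing is read from these counts. Fewer cells of a type and less RNA per cell cannot be told apart in RNA of whole tissue, so a level here stands for either.

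**Figure D1:**
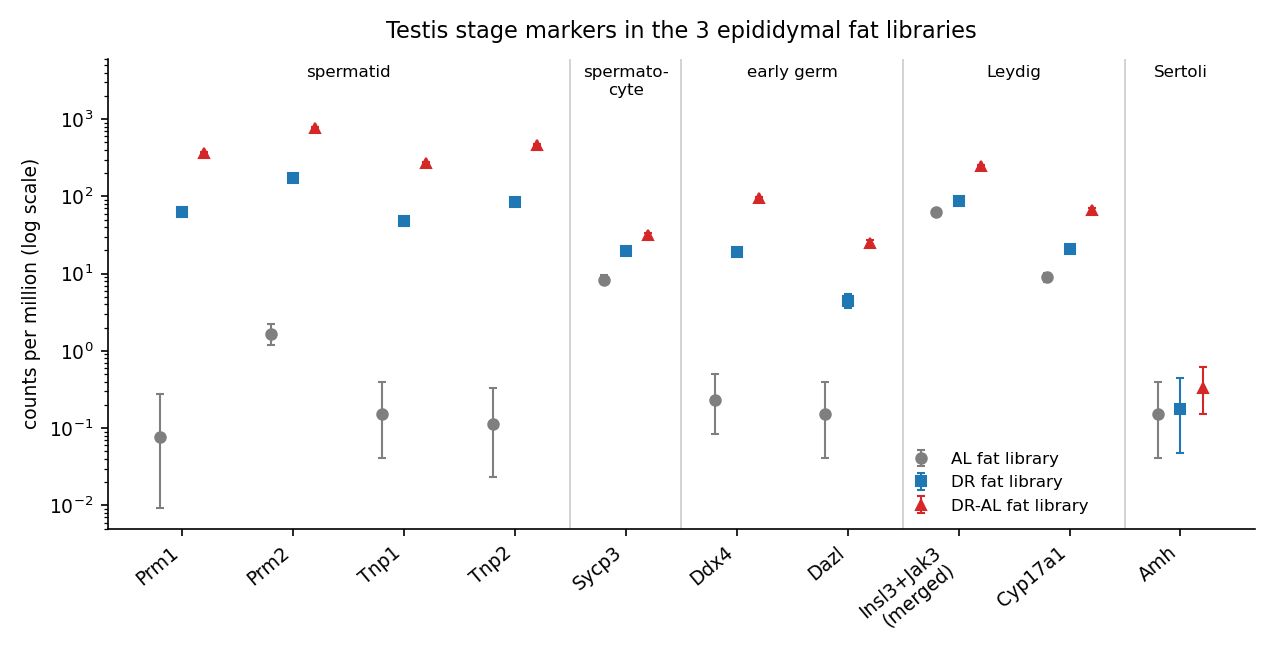
CPM (log axis) of each testis stage marker in the AL, DR and DR-AL epididymal fat libraries, 1 library per diet, with exact 95% intervals for counting error as bars. The 6 markers Prm1, Prm2, Tnp1, Tnp2, Ddx4 and Dazl climb from 1.64 or less in AL through DR to DR-AL, while Sycp3, the merged Insl3 and Jak3 locus and Cyp17a1 start from 8.32 or more and Amh stays below 0.4.

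Protamine 1, encoded by Prm1, and protamine 2, encoded by Prm2, are the small arginine-rich proteins that package DNA in the sperm head. Prm1 had 2 counts in AL fat, 1437 under DR and 10028 after DR-AL. Prm2 had 43, 3914 and 21083 counts. Prm2 was thus the most counted of the 10 genes in each of DR and DR-AL fat, and the one of the 4 spermatid genes with more than 4 counts in AL.

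Transition proteins 1 and 2, encoded by Tnp1 and Tnp2, replace histones before the protamines are laid down. Tnp1 had 4 counts in AL fat, 1103 under DR and 7495 after DR-AL. Tnp2 had 3, 1926 and 12855 counts. The order AL, DR, DR-AL held for each of the 4 spermatid genes, with intervals that did not overlap between libraries. Summed, the 4 genes took 0.0367% of the DR fat library and 0.188% of the DR-AL fat library.

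From AL to DR the ratio was 825 (95% interval 228 to 6820) for Prm1, which rests on 2 counts in AL. It was 105 (77.5 to 145) for Prm2, 317 (123 to 1164) for Tnp1 and 737 (252 to 3578) for Tnp2. The wide intervals come from the few counts in AL, and the ratios of DR-AL to DR are the firmer ones. In DR-AL, Prm1 was 5.82-fold (5.51 to 6.16), Tnp1 5.67-fold (5.32 to 6.05) and Tnp2 5.57-fold (5.31 to 5.85) as high as in DR. Prm2 was 4.50-fold (4.34 to 4.65) as high, below the other 3 spermatid genes beyond counting error.

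Prm1, Prm2 and Tnp2 lie in a cluster on chromosome 16, from 10787936 to 10805839 in GRCm38, which spans 17.9 kb with Prm3 included. Prm1 is annotated at chr16:10796326-10805839 and Prm2 at chr16:10791380-10796134, both on the minus strand. Prm3, the remaining protamine gene of the cluster, had 1, 99 and 690 counts and a log2 ratio of DR-AL to DR of 2.53, against 2.54 for Prm1. Tnp1 lies apart on the minus strand of chromosome 1, from 73015074 to 73015909, and its log2 ratio was 2.50.

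Prm1 had a further row at the same position on the opposite strand, with 13, 59 and 222 counts in AL, DR and DR-AL fat. That row had 322, 383 and 417 counts in the AL, DR and DR-AL hypothalamus, where Prm1 itself had 0, 2 and 3. The rows were kept apart, because the library preparation keeps the strand, and the values of Prm1 are those on the annotated strand.

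For the genes with an entry in the RefSeq promoter table (GRCm38.p6), 8 of the 10, the 250 bases before the start were compared. The RefSeq starts of Prm1 and Prm2 lie inside the annotated spans given above, and so do their windows. The windows of a late and an early germ cell marker are shown because they differ in base makeup. Prm1, transcribed in spermatids, had 0 CG dinucleotides in that window, and Prm2, Tnp1 and Tnp2 had 2 each. Dazl had 20 and Ddx4 31, with 12 in Sycp3 and 11 in Insl3, against a median of 6 (quartiles 2 and 16) over 32851 promoter windows. CG dinucleotides are in capitals below for Prm1 at chr16:10796824-10797073 and Dazl at chr17:50293621-50293870, each read 5′ to 3′ on the minus strand.
Prm1: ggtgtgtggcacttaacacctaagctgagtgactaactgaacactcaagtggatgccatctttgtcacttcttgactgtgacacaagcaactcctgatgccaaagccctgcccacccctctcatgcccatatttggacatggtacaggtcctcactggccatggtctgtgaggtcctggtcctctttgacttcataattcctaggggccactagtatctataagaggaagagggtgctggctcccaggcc
Dazl: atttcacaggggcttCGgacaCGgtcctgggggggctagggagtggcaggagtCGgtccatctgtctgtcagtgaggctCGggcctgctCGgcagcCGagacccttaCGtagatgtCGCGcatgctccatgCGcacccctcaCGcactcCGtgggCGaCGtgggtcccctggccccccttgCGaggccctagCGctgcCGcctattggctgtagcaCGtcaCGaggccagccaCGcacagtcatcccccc
The cAMP response element, which CREM binds in spermatids, has the textbook form TGACGTCA. None of the 8 windows held these letters, and 1.55% of all windows did. The looser form TGANNTCA, which reads the same on both strands and includes TGACGTCA, was in 11.9% of all windows and occurred once each in Prm1 and Tnp1. It is in capitals below, with 10 bases on either side, and begins 64 bases before the start of Prm1 (window chr16:10796870-10796897) and 94 bases before that of Tnp1 (window chr1:73015976-73016003), both on the minus strand.
Prm1: tggtcctcttTGACTTCAtaattcctag
Tnp1: caaaggttagTGATGTCAcaagagagct
These matches describe the letters of the windows only.

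Sycp3, on chromosome 10 from 88459569 to 88473236, encodes a protein of the synaptonemal complex that joins paired chromosomes in meiosis. It had 218 counts in AL fat, 452 under DR and 862 after DR-AL. Unlike the other germ cell genes it was already counted at 8.32 CPM in AL, and it was 2.38-fold as high in DR as in AL. From DR to DR-AL its ratio was 1.59 (1.42 to 1.79), the lowest value of the 10 genes, though the wide interval of Amh takes it in. With the AL level subtracted from both libraries, the log2 ratio of DR-AL to DR was 1.01 in place of 0.67. Its locus in the table is 3.25 times as long as the annotated gene, and the counts outside the gene were not told apart from those within it.

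Ddx4 encodes the mouse VASA helicase, found in germ cells from the fetal gonad to the round spermatid. It lies on the minus strand of chromosome 13, from 112598333 to 112652475. It had 6 counts in AL fat, 440 under DR and 2627 after DR-AL. DR-AL was 4.98-fold (4.50 to 5.52) as high as DR, and DR was 84.2-fold (38.4 to 231) as high as AL.

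Dazl encodes an RNA-binding protein of germ cells from their early stages to meiosis and lies on the minus strand of chromosome 17, from 50279395 to 50293636. It had 4 counts in AL fat, 102 under DR and 684 after DR-AL. The ratio of DR-AL to DR was 5.60 (4.54 to 6.96), an interval that takes in the ratios of Prm1, Tnp1, Tnp2 and Ddx4 but not that of Prm2. DR was 29.3-fold (11.1 to 110) as high as AL, an interval below those of Prm1, Tnp1 and Tnp2 that overlaps that of Prm2 (77.5 to 145). Over the early germ and spermatid genes the ratio of DR-AL to DR ran from 4.50 to 5.82, and that of DR to AL from 29.3 to 825. The ratios to AL rest on 2 to 6 counts in AL, apart from Prm2 with 43. No difference between the stages is therefore read from them.

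**Figure D2:**
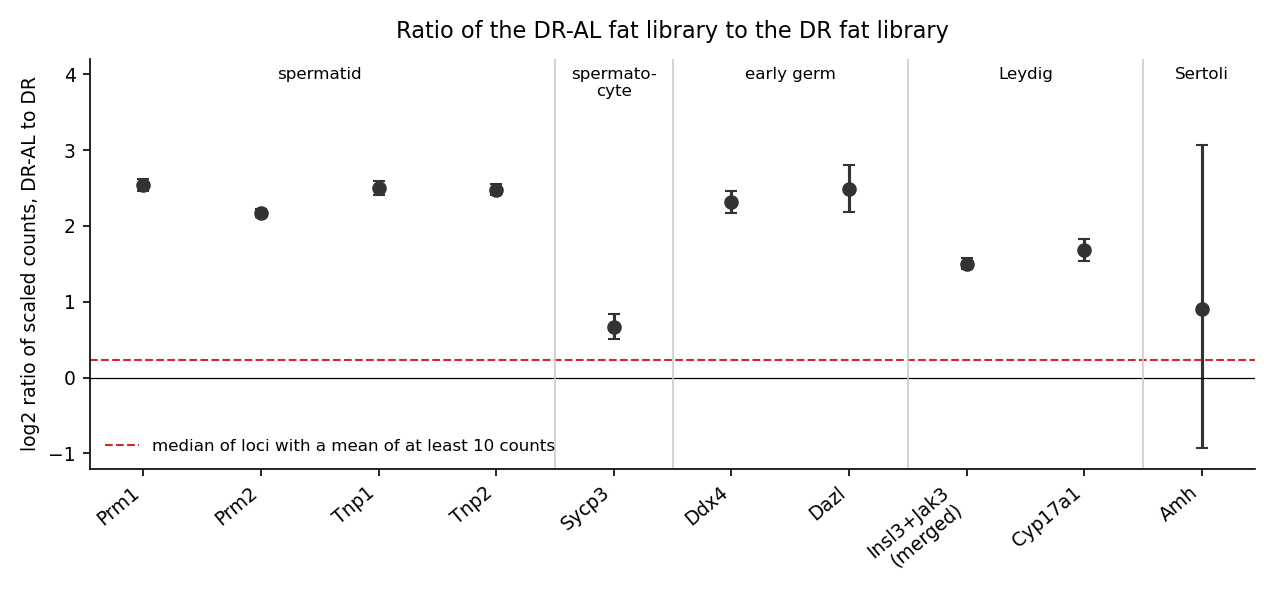
Log2 ratio of counts scaled to the library total, DR-AL fat to DR fat, for each testis stage marker (no pseudocount, bars are exact 95% intervals for counting error), with the median of 17306 loci, 0.24, as a dashed line. The 6 germ cell markers other than Sycp3 lie between 2.17 and 2.54, Cyp17a1 and the merged Insl3 and Jak3 locus at 1.68 and 1.50, Sycp3 at 0.67, and the interval of Amh spans 0.

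Cyp17a1, on the minus strand of chromosome 19 from 46667165 to 46673172, encodes the hydroxylase and lyase that turns progestogens into androgens. In fat it had 235 counts in AL, 475 under DR and 1825 after DR-AL, and DR-AL was 3.21-fold (2.90 to 3.55) as high as DR. The liver libraries also held it, with 246, 1340 and 1798 counts in AL, DR and DR-AL. Its level in fat stood at 90.1% of its CPM in liver of the same diet in AL, at 33.8% under DR and at 90.9% after DR-AL. The 8 liver genes stood at a median of 12.1% of the liver level in AL fat and at no more than 0.304% in the other fat libraries, and their part in the Cyp17a1 counts was not tested. With the AL level subtracted, the log2 ratio of DR-AL to DR was 2.29 for Cyp17a1 in place of 1.68. The Cyp17a1 locus in the table is 6.03 times as long as the annotated gene. Counts outside the gene were not told apart from those within it.

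Insl3, which encodes the hormone of Leydig cells that guides testis descent, lies at chr8:71689214-71690575 and ends at the same base as Jak3, a kinase gene of immune cell signalling at chr8:71676296-71690575 on the same strand. The table counts both in 1 row, so its values cannot be assigned to Insl3. The merged row had 1646 counts in AL fat, 2006 under DR and 6791 after DR-AL, and 106 to 364 counts in each library of the other tissues. DR was 1.40-fold (1.31 to 1.49) as high as AL, and DR-AL was 2.83-fold (2.69 to 2.97) as high as DR.

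Amh encodes anti-Müllerian hormone, which fetal and immature Sertoli cells make in quantity and adult ones hardly do. It lies on chromosome 10 from 80805243 to 80807648. It had 4 counts in AL fat, 4 under DR and 9 after DR-AL, under the 12 to 38 counts of the hypothalamus and hippocampus libraries. The ratio of DR-AL to DR was 1.88 (0.524 to 8.34), so that no difference in Amh was detectable at this depth. In FPKM its log2 ratio to AL was -0.24 in DR and -0.20 in DR-AL, against 0.18 and 1.02 in counts, so its direction depends on the scale.

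By stage, the median log2 ratio of DR-AL to DR was 2.49 over the 4 spermatid genes, 2.32 over Sycp3, Ddx4 and Dazl, and 1.50 over Cyp17a1, Amh and the merged Insl3 and Jak3 locus. The value of 2.32 is that of Ddx4 itself. That of 1.50 belongs to the merged locus, which cannot be assigned to Insl3, and without it the somatic median was 1.26. The spermatid median was 0.17 above that of spermatocyte and early germ genes. Subtracting opposite ends of the counting bounds of these medians gave outer limits of -0.06 and 0.40. Such limits are not an interval for the difference itself, so whether it exceeds counting error was not tested. The median of the 17306 loci with a mean of at least 10 counts in fat was 0.24. Amh does not reach a mean of 10 counts and the other 9 genes do.

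Ratios of 2 genes within a library do not depend on its total. Per count of Ddx4 there were 3.27 counts of Prm1 (2.93 to 3.64) in DR fat and 3.82 (3.66 to 3.99) in DR-AL fat, a small difference beyond counting error. Per count of Dazl there were 14.1 counts of Prm1 in DR and 14.7 in DR-AL, and Tnp1 stood at 0.573 and 0.583 counts per count of Tnp2. Among the spermatid genes, the pairs with Prm2 moved the most, since Prm2 had 2.72 counts per count of Prm1 (2.56 to 2.90) under DR and 2.10 (2.05 to 2.15) after DR-AL. Against Cyp17a1 the counts of Prm1 went from 3.03 in DR to 5.49 in DR-AL, and against Sycp3 from 3.18 to 11.6. Per count of Ddx4, Prm2 had 8.90 counts under DR (8.06 to 9.84) and 8.03 after DR-AL (7.71 to 8.36), and these intervals overlap. Paired with Ddx4 or Dazl, the spermatid genes compared here therefore kept nearly the same proportions, though Prm1 per Ddx4 moved beyond counting error. Prm2 did not keep its proportions to the other spermatid genes. Sycp3 and Cyp17a1, which AL fat already held, did not keep theirs to Prm1.

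In liver, colon and brain the spermatid genes were at or near 0. Over these 12 libraries no library had more than 13 counts of any of Prm1, Prm2, Tnp1 and Tnp2, and their sum was 0 to 27 counts, against 52, 8380 and 51461 in AL, DR and DR-AL fat. The highest sum was that of DR-AL liver, at 0.0586% of the DR-AL fat level. Ddx4 and Dazl had a low level in the brain on every diet, with 69 to 101 counts of Ddx4 and 26 to 147 counts of Dazl per library. Summed, they stood at 3.59 to 6.68 CPM in the 6 brain libraries, below the 23.7 CPM of DR fat and the 121 CPM of DR-AL fat but above the 0.381 CPM of AL fat.

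**Figure D3:**
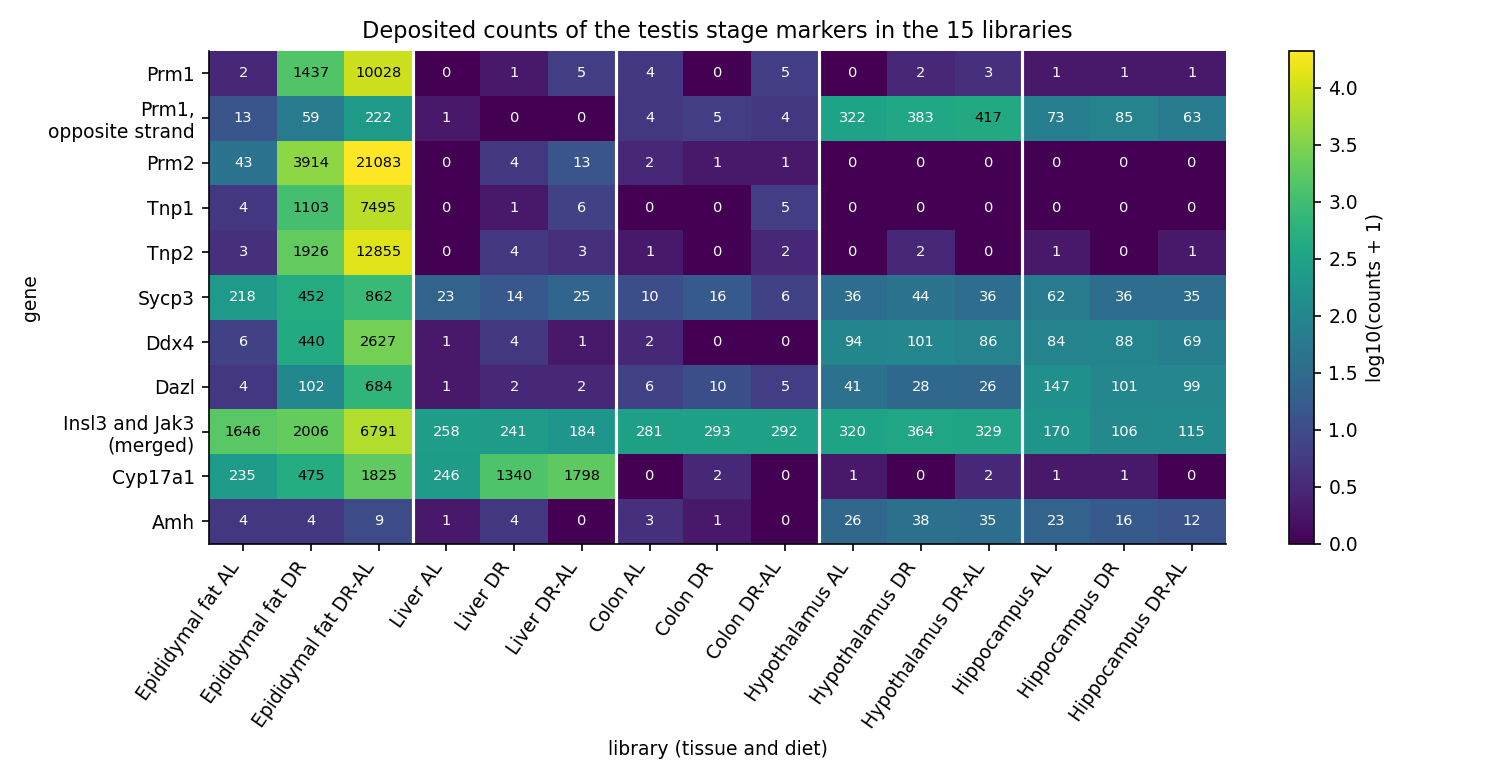
Deposited counts of each testis stage marker (rows) in the 15 libraries (columns, tissue and diet), coloured by log10 of counts plus 1. The spermatid rows are bright in DR and DR-AL fat alone, while Cyp17a1 is also bright in liver, the opposite-strand row of Prm1 in the hypothalamus, and the merged Insl3 and Jak3 row is filled in every library.

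FPKM values, which the authors deposited beside the counts and which are scaled by transcript length, allow levels of different genes to be set side by side. In DR-AL fat, Prm1 led at 354 FPKM, followed by Prm2 at 283. Tnp2 at 204 and Tnp1 at 201 did not differ beyond counting error. Cyp17a1 stood at 10.6, Ddx4 at 8.38, Sycp3 at 7.72, Dazl at 2.51 and Amh at 0.0462 FPKM, and of these neighbours Ddx4 and Sycp3 overlapped. The merged Insl3 and Jak3 locus was listed at 116 FPKM. The protamine and transition protein genes thus stood above the early germ cell genes in FPKM as well as in counts.

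The FPKM scale moved the whole of the DR-AL fat library against DR, since the median log2 ratio over the 17306 loci was -0.58 in FPKM and 0.24 in counts. Relative to that median, the spermatid genes stood at 2.22 in FPKM and 2.25 in counts, and the 6 genes Prm1, Prm2, Tnp1, Tnp2, Ddx4 and Dazl lay between 1.90 and 2.31 in FPKM and between 1.93 and 2.31 in counts. Sycp3 was lower in DR-AL than in DR in FPKM, with a log2 ratio of -0.29, and stood above the median of loci on both scales, at 0.29 in FPKM and 0.43 in counts. The merged Insl3 and Jak3 locus stood at 2.48 in FPKM and 1.26 in counts, so the scales parted most for this locus. The part that the merging plays in this was not tested.

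**Figure D4:**
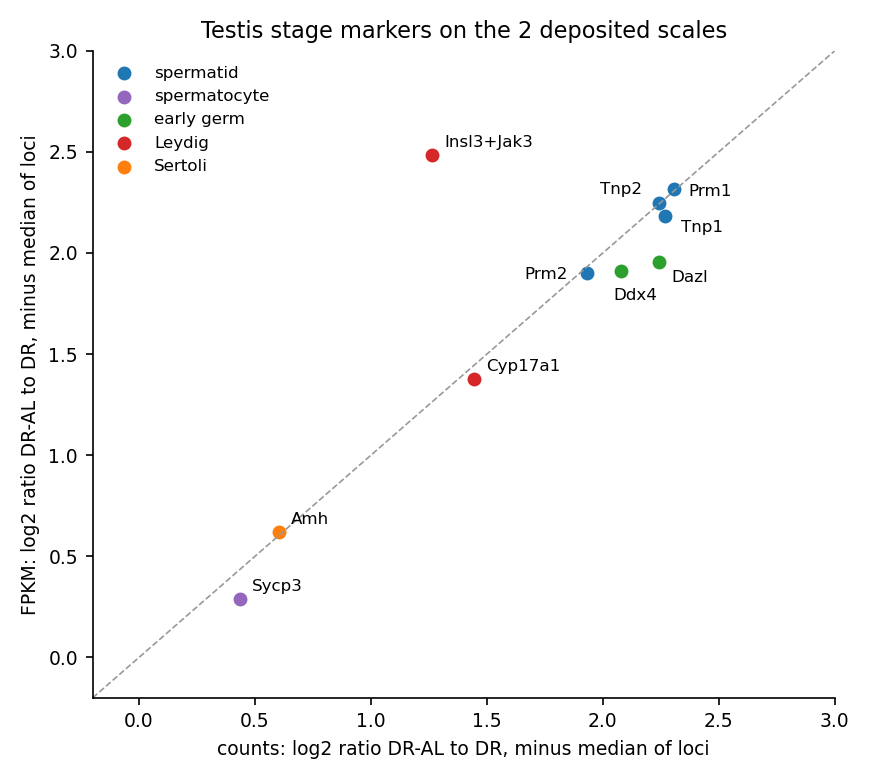
Log2 ratio of DR-AL fat to DR fat for each testis stage marker, minus the median of 17306 loci, in deposited counts (horizontal) and deposited FPKM (vertical), with equality as a dashed line. The merged Insl3 and Jak3 locus lies above the line at 1.26 in counts and 2.48 in FPKM, and the other 9 markers lie nearer to it.

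The stages were then described with longer lists, also drawn up with results of these libraries known, over loci with 1 gene name and a mean of at least 10 counts in fat. A locus can pass that mean through the DR-AL library alone, so counts over those that passed are a description. Of all 17306 loci with that mean, 21.3% were at least 2-fold higher in DR than in AL and 21.0% in DR-AL than in DR. In the spermatid list, which includes 4 of the 10 genes, 31 of 32 genes passed the mean and all 31 were at least 2-fold higher in both comparisons, with DR-AL to DR log2 ratios from 1.90 to 2.90 and a median of 2.34. Smcp, a mitochondrial protein of sperm, had 34, 2130 and 10214 counts, and Dbil5, an acyl-CoA binding protein of spermatids, had 9, 745 and 4347. Gapdhs, the sperm form of a glycolytic enzyme, shares its row with Tmem147 (1223, 2607 and 8466 counts) and was left out of the count.

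In the list of pachytene spermatocytes, 14 of 14 genes were at least 2-fold higher in DR-AL than in DR, with a median log2 ratio of 2.38. Ldhc, the lactate dehydrogenase of germ cells, had 2, 1944 and 13609 counts in AL, DR and DR-AL, a log2 ratio of 2.55. Ybx2, which binds stored mRNA in germ cells, had 385, 1991 and 10654, and Meig1 had 6, 679 and 4876. These spermatocyte genes lay with the spermatid genes and apart from Sycp3.

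In the list of meiotic prophase, 13 of 16 genes were at least 2-fold higher, with a median of 2.11, and the exceptions were Sycp3, Prdm9 and Spata22. The synaptonemal complex genes Syce1 (2, 236 and 1722 counts), Syce2 (64, 209 and 775) and Syce3 (0, 24 and 166) were among the 13. Sycp1, a partner of Sycp3 in the same complex, had 0, 175 and 1001 counts and a log2 ratio of 2.25, and Prdm9, which places recombination sites, had 410, 325 and 400. Sycp1, Prdm9 and Spata22 are named after their values were seen.

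In the early germ list, 14 of 20 genes passed the mean and 9 of them were at least 2-fold higher, with a median of 2.13. Mael, a protein of the piRNA pathway, had 3, 752 and 5579 counts. The other 5, Zbtb16, Gfra1, Ret, Uchl1 and Kit, had log2 ratios from 0.04 to 0.86, and Ret, Uchl1 and Kit are named after their values were seen. Gfra1, a receptor of spermatogonial stem cells and of neurons, had 1545, 199 and 366 counts in AL, DR and DR-AL fat, and Zbtb16 had 4544, 4567 and 5616. Each of these 5 also had at least 1914 counts in some library of another tissue. Sohlh1, Nanos2, Nanos3, Sall4, Lin28a and Rhox13 were below the mean, with 21 or fewer counts in each fat library. They are named after their values were seen, and the list median says nothing of them.

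In the Leydig list, 8 of 9 genes had a row of their own and a mean of at least 10 counts, and 6 of these were at least 2-fold higher in DR-AL than in DR, with a median ratio of 3.99-fold. Cyp11a1, which makes the first steroid from cholesterol, had 9, 88 and 570 counts. Hsd3b1 had 0, 222 and 867 counts and Hsd3b6 had 0, 58 and 602, so that against the limit of 3 counts in the AL library, and with the DR-AL count taken as it stands, DR-AL was at least 277-fold higher than AL for Hsd3b1 and at least 192-fold for Hsd3b6. Hsd3b6, an isoform that adult Leydig cells use, was 8.66-fold (6.61 to 11.5) as high in DR-AL as in DR, against 3.26-fold (2.81 to 3.79) for Hsd3b1. The pair are close paralogs, so reads may be split between them, and no library of another tissue had more than 4 counts of Hsd3b1 or 2 of Hsd3b6. The exceptions were Star and Lhcgr, named after their values were seen.

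In the Sertoli list, 14 of 15 genes were found, 12 passed the mean, and 9 of these were at least 2-fold higher, with a median of 1.81. Amhr2, the receptor of the hormone that Amh encodes, had 87, 298 and 1311 counts and a log2 ratio of 1.87. Wt1, a transcription factor of Sertoli and mesothelial cells, had 326, 423 and 649 counts. Inhbb, an inhibin and activin subunit that adipocytes also make, was lower in DR-AL than in DR, with 1010, 1421 and 622 counts and a log2 ratio of -1.45. The somatic lists thus spread more widely than the spermatid list, and Amh and Fshr were the genes of the Sertoli list below a mean of 10 counts.

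**Figure D5:**
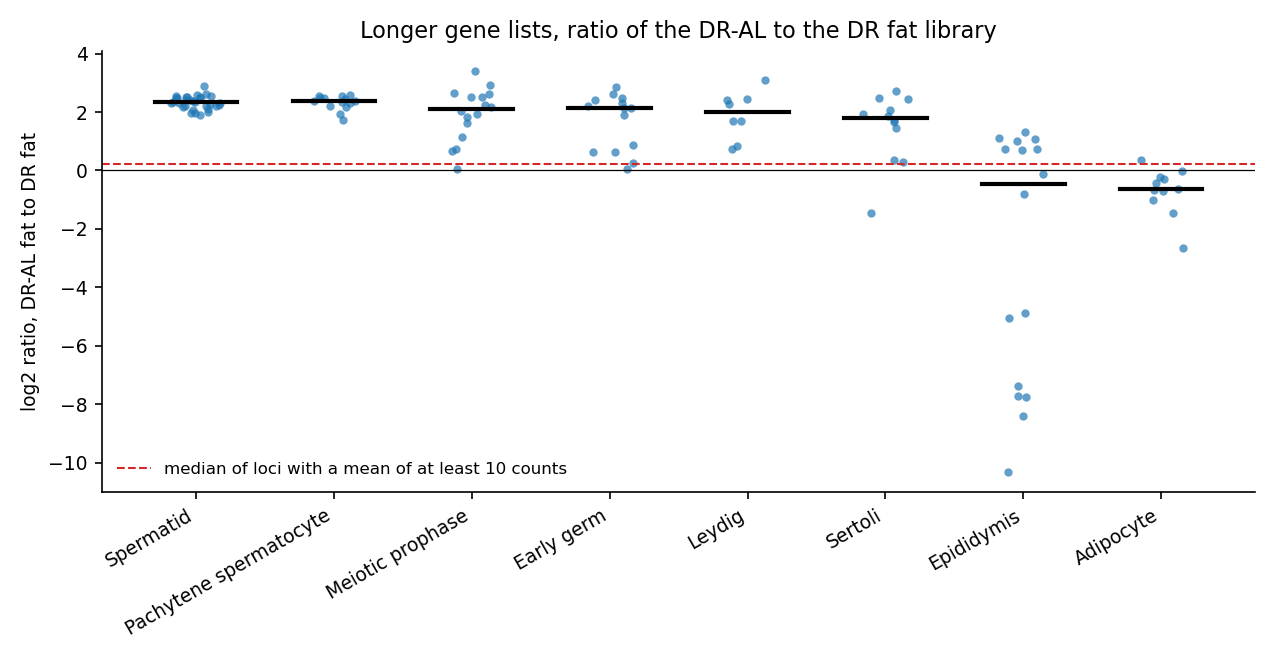
Log2 ratio of DR-AL fat to DR fat (counts scaled to the library total, pseudocount of 0.5 counts) for the genes of 8 lists, 1 point per gene with a mean of at least 10 counts, the list median as a black bar and the median of 17306 loci, 0.24, as a dashed line. The spermatid genes lie between 1.90 and 2.90, while the early germ and Sertoli lists reach down to 0.04 and -1.45 and the adipocyte list has a median of -0.62.

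Genes whose AL level stood over 10% of their DR-AL level had a lower median ratio in the lists that included such genes, with ranges that overlapped in some. Where AL stood under 10% of the DR-AL level, the median log2 ratio of DR-AL to DR was 2.34 over 31 spermatid genes, 2.38 over 14 of pachytene spermatocytes, 2.51 over 11 of meiotic prophase and 2.32 over 9 of the early germ list. Where AL stood over 10%, it was 0.72 over 5 genes of meiotic prophase, Sycp3 among them, and 0.62 over 5 of the early germ list. In the Leydig list the medians were 2.43 over 5 genes under 10% and 0.84 over 3 above it, and in the Sertoli list 1.93 over 7 and 0.36 over 5. The ranges overlapped in the Sertoli list (1.45 to 2.71 and -1.45 to 2.45) and in the list of meiotic prophase (1.63 to 3.41 and 0.04 to 1.83), and Cyp17a1 at 1.68 lay beside Hsd3b1 at 1.70 in the Leydig list. This split was made after the values were seen and uses the DR-AL library on both sides. A low DR-AL level alone both places a gene over 10% and lowers its ratio, so nothing is read from the split. It does not sort genes by their AL counts, since Ybx2 with 385 fell under 10% and Lhcgr with 7 over it.

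The adipocyte list moved the other way, with a median log2 ratio of DR-AL to DR of -0.62 over 11 genes, 0 of them at least 2-fold higher and 3 at least 2-fold lower, against 4.82% of loci. Fabp4, the fatty acid carrier of adipocytes, had 460955, 281101 and 289177 counts, Cfd had 256450, 229078 and 225824, and Retn had 37323, 43474 and 19222. Scaled to the summed adipocyte genes in place of the library total, the spermatid median was 2.80 in place of 2.49. The part of adipocyte RNA in the ratios of the testis genes was not tested beyond this.

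Across all 15 libraries, the 5 genes whose log2(CPM + 0.5) followed the mean profile of Prm1, Prm2, Tnp1 and Tnp2 most closely were Spz1, Crisp2, 4930571K23Rik, Fabp9 and Akap4, out of 14043 loci with 1 gene name and at least 100 counts in a fat library. Pearson's r was 0.999 for each, over 15 libraries most of which lie near 0, and it is given as a description. Spz1 had 5, 1088 and 7023 counts in AL, DR and DR-AL fat and Crisp2 had 6, 1526 and 9255. The log2 ratios of DR-AL to DR of the 5 genes ran from 2.09 for 4930571K23Rik to 2.45 for Fabp9. Crisp2 and Akap4 belong to the spermatid list, and all 5 were picked for a profile that includes these libraries. A likeness of their ratios to those of the spermatid list is therefore built in, and nothing is read from it.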

How the data were processed

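RNA pooled from 5 mice per tissue and diet was depleted of ribosomal RNA, and stranded libraries were sequenced from both ends. The methods name alignment to mm10 in Strand software after quality trimming, with duplicate reads removed, which can lower the counts of abundant short transcripts. Per the labels, the processing notes name mm9 and DESeq2. The authors deposited whole-number read counts per locus, without normalization, and FPKM values, whose scaling between libraries is not given in the sources used here. All 30 value columns were read. Positions in the table are not those of GRCm38, so the printed coordinates come from GENCODE M21 and, for promoters, from RefSeq, both on GRCm38. Unnamed loci took 0.258% to 1.39% of counts, and 677 of 33603 loci carry more than 1 gene name.

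Counts were divided by the total on named loci. Log2 ratios used a pseudocount of 0.5 counts, and the fold that calls a locus higher, at least 25%, is that of the methods. With 1 library per tissue and diet no test was made. Intervals were tested on simulated data. Genes named are the 10 markers, the 3 of each of 10 lists with the highest mean FPKM in fat, and the 5 most alike in profile. The markers and lists were chosen with earlier results of these data known. Alternatives were size factors computed as in DESeq, totals without the 10 most abundant loci, FPKM with a pseudocount of 0.1, a pseudocount of 3 counts, loci with a mean of at least 10 counts, folds of 2 and 10 and the longer lists. Scaling by adipocyte genes, leaving out Sycp3 and leaving out the merged Insl3 and Jak3 locus were added after seeing the data. Python 3.11.15, numpy 2.4.6, pandas 2.3.3, scipy 1.17.1 and matplotlib 3.10.9 were used.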

Additional observations from a re-analysis of the deposited data

How the results depend on the processing

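Over the 7 summary values of the report, 42 alternatives left the value within its counting bounds or its count within 1.5 times, and 13 moved it, with no change of direction in these summaries. Among single genes, FPKM turned Amh in DR against AL (log2 ratio -0.24) and in DR-AL against AL (-0.20), and Sycp3 in DR-AL against DR (-0.29), while Sycp3 in DR-AL against AL went from 1.92 to 0.34. At a fold of 10 in place of an increase of 25%, 6 of the 10 genes were higher in DR-AL than in AL and 0 were higher in DR-AL than in DR. The spermatid median log2 ratio of DR-AL to DR, 2.49, became 2.34 with DESeq size factors, 1.64 with FPKM, 2.34 with the longer list and 2.80 with scaling by the adipocyte list, which was added after seeing the data. The median over Sycp3, Ddx4 and Dazl, 2.32, became 2.17, 1.33, 2.13 and 2.62 in the same order. The median over the somatic genes, 1.50, became 1.35 with DESeq size factors, 0.79 with FPKM and 1.26 without the merged Insl3 and Jak3 locus. The median of all loci moved with these scalings as well, from 0.24 to 0.09 with size factors, -0.58 with FPKM and 0.54 with the adipocyte list, and further causes were not tested. No paired analysis was possible because each tissue and diet has 1 library and the labels carry no replicate numbers. Depth limits Amh, at 4 to 9 counts, and the levels of Prm1, Tnp1, Tnp2, Ddx4 and Dazl in AL fat, at 2 to 6 counts.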

Other observations

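Genes of the epididymis were also counted in the fat libraries, and they did not follow the testis genes. All 16 genes of the epididymis list were at least 2-fold higher in DR than in AL fat, against 21.3% of loci. From DR to DR-AL, 4 were at least 2-fold higher (21.0% of loci) and 7 at least 2-fold lower (4.82% of loci), with a median log2 ratio of -0.46 and a range from -10.31 to 1.33. Crisp1, a sperm-coating protein secreted by the epididymis, had 22172 counts in AL fat, 63971 in DR and 125400 in DR-AL, more than any of the 10 testis markers and many of them in AL. Adam7 had 1612, 6574 and 13169 counts and Rnase9 had 264, 1823 and 4669. In contrast, the lipocalin genes Lcn8 (2, 1003 and 5 counts) and Lcn9 (0, 576 and 0) and the glutathione peroxidase gene Gpx5 (9, 3828 and 139) were high in DR fat and near AL levels or well under DR in DR-AL fat. Lcn8, Lcn9 and Gpx5 are named after their values were seen.

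Genes of the seminal vesicle were nearly absent. Svs5 had 3, 9 and 73 counts, Svs6 had 0, 2 and 6, and Svs4 had 0, 2 and 0, and Svs5 was the one gene of 6 with a mean of at least 10 counts. Among liver genes, Apoa1 had 32008, 262 and 81 counts in AL, DR and DR-AL fat, Apoa2 had 20407, 346 and 41, and Mup20 had 30950, 10 and 44. The AL library thus stood apart from both other fat libraries in genes of liver as well as in those of the testis, in opposite directions.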
